A study of Mus musculus with 45 samples.

Results

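Mouse mammary tumors in which the p53 protein was inactivated by SV40 large T antigen were compared with tumors in which the p53 gene had been deleted, by array comparative genomic hybridization (CGH). The comparison used 11 of the 45 arrays of the series, chosen by the mouse model that their labels give. Of these, 5 were C3(1)-Tag tumors, labelled C3(1)/SV40 T/t-antigens, and 6 were p53-/- tumors, labelled p53fl/fl ;MMTV-cre transplant, with 1 array for each tumor. C3(1)-Tag mice carry the early region of simian virus 40, coding for large T and small t antigen, under the promoter of the rat prostatic steroid-binding protein gene C3(1), which is active in mammary epithelium and in other epithelia. In the p53-/- model, both alleles of the p53 gene are flanked by loxP sites, Cre recombinase under the MMTV promoter removes the part between them in mammary epithelium, and the labels give these tumors as transplants. All 11 tumors came from female mice. Strain, age, host and number of animals are not in the labels, so that the tumors were treated as replicates without knowing whether each came from a separate mouse, and p-values measure only the spread between these arrays. The reference DNA was pooled spleen according to the labels.

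The p53 protein stops the cell cycle or kills the cell after DNA damage and faulty chromosome segregation, and its loss lets cells with rearranged chromosomes go on dividing. Large T antigen binds and inactivates p53 and also the retinoblastoma family, which holds cells in G1, while small t antigen binds protein phosphatase 2A. Array CGH measures how much DNA of each locus the tumor holds relative to the reference: a whole-chromosome change shifts all probes of a chromosome a little, whereas an amplicon shifts the probes of a short stretch by much more.

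Values are log2 ratios of Cy3 over Cy5, with the median over the autosomes of every array set to 0, so that 0 is the array's own typical autosomal level. The labels give Cy5 to the tumor, but in 330 of 338 intervals that the authors called in these 11 arrays (97.6%; those that held 3 or more probes and lay 0.2 or further from 0) the sign was that of Cy3 over Cy5. This direction was therefore taken after the values were seen, and with the dyes as labelled every gain becomes a loss. Probes of the X chromosome had a median above 0 on all 11 arrays, from 0.76 in P53_1573 to 1.79 in C3TAg_8_RPT. The sex of the reference was not established. Several arrays stood apart. Over 1 Mb bins, the array of C3TAg_5RPT was almost the same as that of the MMTV-Her2/neu tumor H2N53 (Pearson's r = 0.960), and C3TAg_7RPT the same as H2N61 (r = 0.928), whereas their highest correlations within their own model were 0.245 and 0.684. Less closely, C3TAg_8_RPT (0.703 against 0.684), C3TAg4 (0.502 against 0.155) and C3TAg2 (0.417 against 0.218) also correlated most with an array of another model. So did P53_2979 (0.734 against 0.725). Probes more than 1.5 away from the running median of 11 probes numbered 13 to 85 on the C3(1)-Tag arrays and 395 to 797 on the p53-/- arrays. Among the 557 probes isolated in this way on at least 3 arrays, P53_1573, P53_5817, P53_5851 and P53_8546 resembled each other closely (r of 0.898 to 0.977), as did P53_2979 and P53_5809 (r = 0.919), but the pair resembled the other 4 much less (0.186 to 0.367). P53_2979 and P53_5809 were closer to the MMTV-PyMT array PyMt341 (0.843 and 0.833) than to those 4. By these probes C3TAg_5RPT and C3TAg_7RPT were closest to C3TAg_8_RPT of their own model and slide (0.627 and 0.742), against at most 0.456 and 0.480 with arrays of other models. P53_2979 and P53_5809 were also the noisiest arrays, with a single-probe SD of 0.449 and 0.476 against 0.178 to 0.268 on the other arrays. No slide held both models. Of the 3 scan dates, only date 1 held both, with C3TAg2, C3TAg4, P53_1573, P53_2979 and P53_8546. Slide and model can therefore not be told apart.

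Trp53, the gene deleted in the p53-/- model, was not clearly lost in the p53-/- tumors. Its 2 probes lie on chromosome 11 at 69396256 to 69396315 and at 69399814 to 69399873 (mm8), and whether they fall within the deleted part was not established, so that the locus checks neither the labels nor the direction. The mean of both probes was -0.12 in C3TAg2, -0.13 in C3TAg4, -0.02 in C3TAg_5RPT, 0.09 in C3TAg_7RPT and -0.16 in C3TAg_8_RPT, and from -0.53 to 0.17 with a median of -0.15 over the 6 p53-/- tumors. The groups overlapped, and the difference of 0.12 (C3(1)-Tag minus p53-/-, SE 0.15) did not pass the test (limma, adjusted p = 0.713). The lowest values, -0.53 in P53_1573 and -0.48 in P53_8546, lay on a chromosome 11 that was at -0.28 and -0.30 as a whole in these tumors.

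C3(1)-Tag tumors ranged from a nearly flat genome to one altered on most chromosomes, and the p53-/- tumors lay between these extremes. Segments were found by splitting each chromosome at the stretch of probes that departed most from the rest, as long as the split statistic was over 6, and a segment mean of at least 0.2 in size was called a gain or a loss. The altered share, the percentage of autosomal 1 Mb bins called gained or lost, was 6.51% in C3TAg2, 0.0486% in C3TAg4, 56.4% in C3TAg_5RPT, 15.7% in C3TAg_7RPT and 87.9% in C3TAg_8_RPT. In the p53-/- tumors it ran from 18.1% to 79.8% with a median of 63.4%. The lowest and the highest share of all 11 tumors were both in C3(1)-Tag tumors. The means were 33.3% ± 37.6 (SD, n = 5) and 53.9% ± 25.1 (SD, n = 6), and their difference did not pass a two-sided exact permutation test over all 462 assignments of the tumors (p = 0.284, adjusted p = 0.567 over 6 measures). The gained share (14.7% ± 19.1 against 28.3% ± 13.9) and the lost share (18.6% ± 18.6 against 25.7% ± 14.6) differed by less than their spread (exact permutation test, adjusted p = 0.567 and 0.743). With single tumors left out, these differences were -20.8 to -9.87 for the gained and -13.5 to -2.43 for the lost share. The difference in altered share of -20.6 was -34.3 without C3TAg_8_RPT, -12.3 without C3TAg4 and -68.4 within scan date 1, where the smallest possible p is 0.1. With the dyes as labelled, the differences in gained and lost share exchange places (-7.07 and -13.5).

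**Figure D1:**
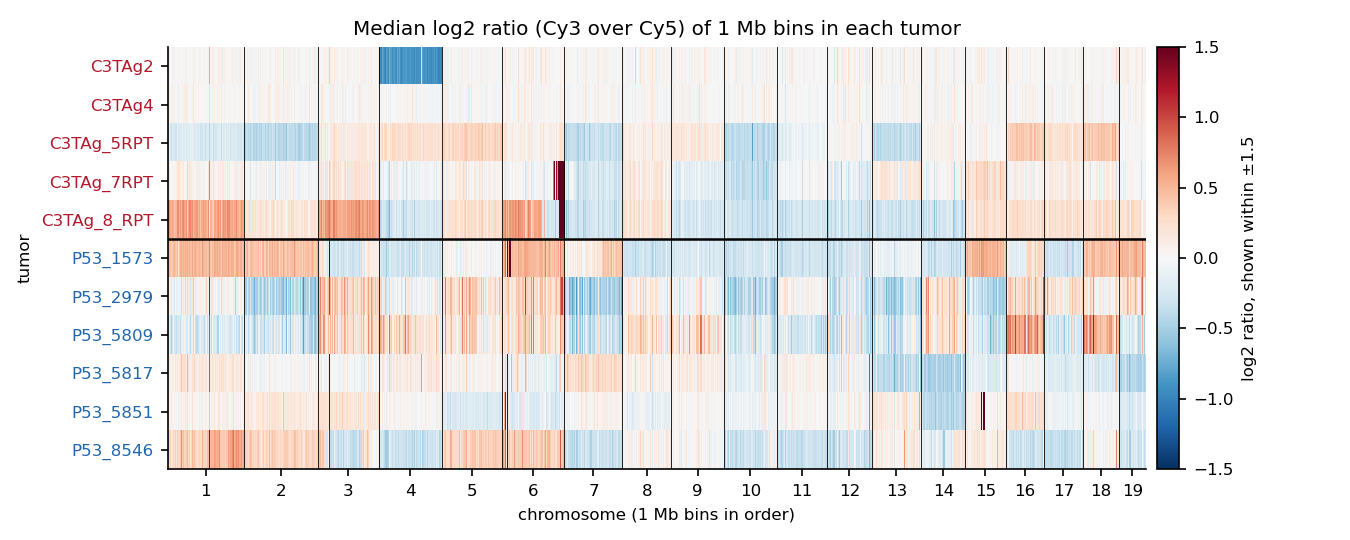
Median log2 ratio (Cy3 over Cy5) of each 1 Mb autosomal bin in genomic order (x axis, by chromosome) for each tumor (rows; C3(1)-Tag in red type above the line, p53-/- in blue type below), with colours cut off at 1.5 in size. C3TAg4 is nearly blank, C3TAg2 shows little but the loss of chromosome 4, and dark red marks the proximal part of chromosome 6 in 4 p53-/- tumors.

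The genomes of p53-/- tumors were cut into more segments. There were 41 autosomal segments in C3TAg2, 44 in C3TAg4, 20 in C3TAg_5RPT, 48 in C3TAg_7RPT and 47 in C3TAg_8_RPT, against 51 to 104 with a median of 88 in the p53-/- tumors. The groups did not overlap. The mean of 40 ± 11.5 (SD, n = 5) was 42 below the mean of 82 ± 21.0 (SD, n = 6), which passed the two-sided exact permutation test (p = 0.00649, adjusted p = 0.0390 over the 6 measures). Segments longer than 1 Mb numbered 20 to 42 in C3(1)-Tag and 48 to 75 in p53-/- tumors, again without overlap. Altered segments numbered 3 to 44 against 33 to 72, and those over 10 Mb 0 to 23 against 8 to 36. The number of isolated probes separated the models in the same way, and its part in the number of segments was not tested. The call was lost when any of the 5 C3(1)-Tag tumors was left out (differences of -37 to -44, adjusted p = 0.0571 each) and within scan date 1 (difference -36.8, adjusted p = 0.3).

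The other measures of segments did not separate the models. The median length of altered segments was 126.7 Mb in C3TAg_5RPT, in which whole chromosomes had shifted, and 0.245 to 18.6 Mb in the other C3(1)-Tag tumors, against 0.878 to 35.2 Mb in p53-/- tumors (exact permutation test, adjusted p = 0.762). High-level gain, with a segment mean of at least 0.8, covered 0.0486%, 0%, 0%, 0.972% and 0.535% of the bins in the C3(1)-Tag tumors in the order given above. It covered 0% to 0.632% with a median of 0.267% in p53-/- tumors, and the difference of 0.0681 did not pass the test (adjusted p = 0.762, exact permutation test). With the dyes as labelled it was 1.29 (adjusted p = 0.398, exact permutation test). High-level gain covered at least 1 bin in 3 of 5 C3(1)-Tag and 4 of 6 p53-/- tumors.

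**Figure D2:**
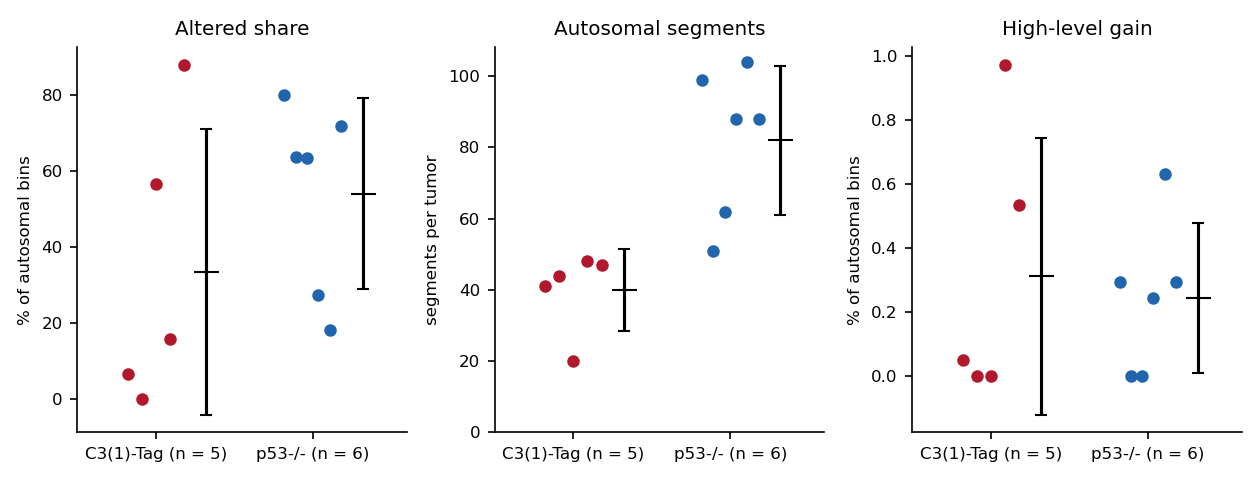
Altered share, number of autosomal segments and share of bins with high-level gain, 1 point for each tumor (red C3(1)-Tag, blue p53-/-), with the mean and SD as a bar beside the points. The segment counts separate at 48 and 51, whereas altered shares from 0.0486% to 87.9% in C3(1)-Tag tumors enclose those of the p53-/- tumors.

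No whole chromosome passed the test between the models. The mean log2 ratio of the probes of each of the 19 autosomes was compared by exact permutation tests, and 0 passed (0% of autosomes called, and 0 at an unadjusted p under 0.05; lowest p = 0.0801, adjusted p = 0.925). This lowest p was that of chromosome 17, at 0.02, -0.01, 0.21, 0.06 and 0.20 in the C3(1)-Tag tumors and from -0.30 to 0.28 with a median of -0.16 in p53-/- tumors. Of the p53-/- tumors, only P53_2979 lay above 0. Chromosome 6 had the highest mean in both models (0.19 ± 0.21 and 0.31 ± 0.25, SD), with chromosome 3 of the C3(1)-Tag tumors at nearly the same level (0.19 ± 0.22), and chromosome 10 was the lowest in both (-0.21 ± 0.22 and -0.19 ± 0.11, SD). Each tumor had its own set of shifted chromosomes: means beyond 0.2 in size were found for 1 chromosome in C3TAg2, 0 in C3TAg4, 10 in C3TAg_5RPT, 4 in C3TAg_7RPT and 15 in C3TAg_8_RPT, and for 4 to 14 chromosomes in p53-/- tumors. Such a mean need not stand for the whole chromosome. In C3TAg_7RPT, chromosome 6 was at 0.29, yet its segment from 3274714 to 126443220 was at -0.04.

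**Figure D3:**
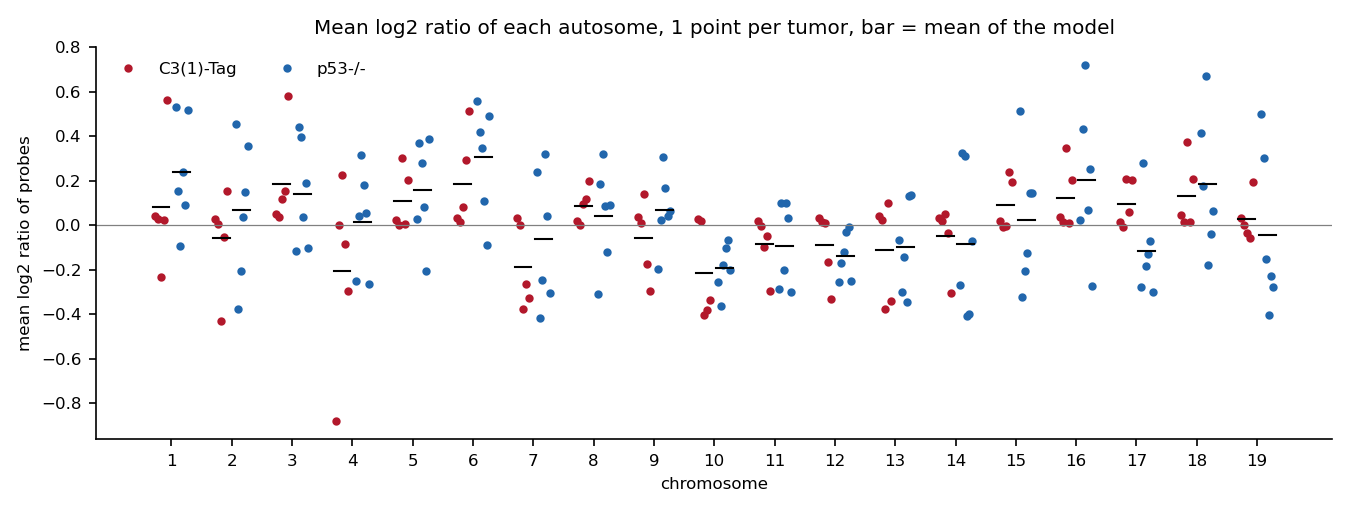
Mean log2 ratio of the probes of each autosome (y axis) by chromosome (x axis), 1 point for each tumor (red C3(1)-Tag, blue p53-/-) and a black bar at the mean of each model. The points of both models overlap on every chromosome, and the single lowest point is chromosome 4 of C3TAg2 at -0.88.

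The loss of chromosome 4 in C3TAg2 was the deepest shift of a whole chromosome in the comparison. It ran over segments of 108.1 and 42.9 Mb at -0.89 and -0.90, and 99.2% of the bins of the chromosome were called lost. Chromosome 4 holds Cdkn2a, which codes for p16INK4a and p19ARF, inhibitors that act upstream of the retinoblastoma protein and p53, and its segment was at -0.89 in C3TAg2. The same gene was in a segment at 0.03 in C3TAg4, 0.23 in C3TAg_5RPT, -0.08 in C3TAg_7RPT and -0.29 in C3TAg_8_RPT. In p53-/- tumors its segment ranged from -0.29 to 0.38. C3TAg2 thus stood below all other tumors.

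Some regions were gained, or lost, in several tumors of 1 model and changed in that direction in no tumor of the other, which is a description without a test. Bins changed in 1 direction in at least 3 p53-/- tumors and in that direction in 0 C3(1)-Tag tumors numbered 154 of 2057, of which 47 were gained and 107 were lost, and 0 bins met the definition with the models exchanged. The opposite change did occur in C3(1)-Tag tumors: C3TAg_8_RPT had 100% of the bins of chromosome 14 lost, 100% of those of chromosomes 17 and 19 gained, and chromosome 6 from 100094538 to 130391047 in a segment at -0.28, and C3TAg_5RPT had 100% of chromosome 17 gained. Gains of this kind lay on chromosome 14 from 92000001 to 124000000 (24 bins) and on chromosome 6 from 100000001 to 126000000 (23 bins). Losses covered 56 bins of chromosome 19 from 3000001 to 62000000 and 50 bins of chromosome 17 in runs from 3000001 to 13000000 and from 14000001 to 56000000. They also covered 1 bin of chromosome 8 from 85000001 to 86000000, lost in 4 p53-/- tumors with means from -1.22 to -0.80. With 6 p53-/- and 5 C3(1)-Tag tumors, and 2 of the latter nearly flat, a count of 3 and 0 is easier to meet in the p53-/- direction. Without C3TAg_8_RPT the count rose to 676 bins, and without P53_8546 it dropped to 49.

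The same chromosome could be gained and lost within the p53-/- tumors. Over the 222 probes of the chromosome 14 run, the mean was 0.29 in P53_2979, 0.28 in P53_5809 and 0.27 in P53_8546, but -0.26 in P53_1573, -0.39 in P53_5817 and -0.36 in P53_5851. The C3(1)-Tag tumors lay from -0.35 to 0.04 there. Chromosome 19 was at -0.40 in P53_5817, -0.28 in P53_8546, -0.23 in P53_5851 and -0.15 in P53_5809, but at 0.50 in P53_1573 and 0.30 in P53_2979. The C3(1)-Tag values of chromosome 19 were 0.04, 0.00, -0.03, -0.06 and 0.20. Losses found in at least 3 tumors of each model covered 171 bins, 97 of them on chromosome 10 and 74 on chromosome 7, and such gains covered 10 bins, 9 of them on chromosome 6.

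Amplification of the Met region of proximal chromosome 6 was found in p53-/- tumors, and not in any C3(1)-Tag tumor. Met codes for the receptor tyrosine kinase of hepatocyte growth factor. Its 2 probes (17442331 to 17476430, mm8) had means of 0.01 in C3TAg2, 0.03 in C3TAg4, 0.05 in C3TAg_5RPT, 0.05 in C3TAg_7RPT and 0.72 in C3TAg_8_RPT. In p53-/- tumors they were at 4.57 in P53_1573, 0.00 in P53_2979, 0.04 in P53_5809, 5.47 in P53_5817, 5.04 in P53_5851 and 5.10 in P53_8546. The p53-/- tumors thus fell apart into 4 with a high value and 2 without, so that the groups overlapped. The difference in means was -3.20 (C3(1)-Tag minus p53-/-, SE 0.91), which missed the threshold in the fit over all genes (limma, adjusted p = 0.0784). Leaving out P53_2979 or P53_5809, which are the p53-/- tumors without high values, gave adjusted p-values of 0.0142 and 0.0148 (limma), which follows from their values and is no support for the difference. The 4 tumors with high values are also the 4 whose isolated probes resembled each other, but the Met probes were not isolated: the 10 probes on each side had a mean of 2.95 over the p53-/- tumors and 0.19 over the C3(1)-Tag tumors.

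The amplified stretches, the runs of segments around Met with means of at least 2, had different ends in the 4 tumors. They ran from 17442331 to 21393403 in P53_1573 (3.95 Mb, 29 probes, mean 4.36), from 15327864 to 18829387 in P53_5817 (3.50 Mb, 44 probes, mean 5.40), from 16724617 to 21715018 in P53_5851 (4.99 Mb, 44 probes, mean 4.42) and from 17237755 to 18022093 in P53_8546 (0.784 Mb, 16 probes, mean 4.88). The stretch common to all 4 ran from 17442331 to 18022093, 0.580 Mb in length, with 12 probes named Met, AK145182, Capza2, AK045027, St7, Wnt2 and Asz1. Its first bound is that of the first Met probe, set by P53_1573, and its last bound is set by P53_8546. Over these 12 probes the mean was 4.55, 5.43, 4.95 and 4.79 in the 4 amplified tumors, 0.48 in P53_2979 and 0.43 in P53_5809, and -0.06, 0.07, 0.06, -0.10 and 0.59 in the C3(1)-Tag tumors. Cav1 and Cav2, which code for caveolins of the cell membrane, were inside the amplicon in 3 of the 4 and outside it in P53_1573, where the segment of Cav1 was at 0.49.

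Of 10 genes listed for this region, 10 were higher in p53-/- tumors, by a median of -2.82 (C3(1)-Tag minus p53-/-), against a median of 0.0016 over all 20093 gene names. Of them, 2 passed the test, where 1.46% of all gene names did. St7, a candidate tumor suppressor, was at -0.09, 0.30, -0.002, -0.28 and 0.39 in the C3(1)-Tag tumors and from 0.71 to 5.87 with a median of 5.07 in p53-/- tumors. By the mean of its 2 probes every p53-/- tumor was above every C3(1)-Tag tumor, and the difference was -3.78 (SE 0.83, limma, adjusted p = 0.0386). At the second probe alone, P53_2979 and P53_5809 were at 0.28 and 0.09, below C3TAg_8_RPT at 0.43. Wnt2, a secreted ligand of the Wnt pathway, was at -0.41, -0.09, 0.01, -0.26 and 0.51 in C3(1)-Tag tumors and from 0.54 to 5.48 with a median of 4.59 in p53-/- tumors (difference -3.53, SE 0.79, limma, adjusted p = 0.0420). The groups met closely, at 0.51 in C3TAg_8_RPT and 0.54 in P53_2979. The segment that held St7 and Wnt2 was at 0.38 in P53_2979 and 0.39 in P53_5809, below C3TAg_8_RPT at 0.58. Leaving out single tumors gave adjusted p-values of 0.00354 to 0.117 for St7 and 0.00451 to 0.122 for Wnt2 in the same limma fit, and the calls were lost without any 1 of several tumors of either model. Of 16 other settings, 5 lost the call of St7 and 6 that of Wnt2.

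**Figure D4:**
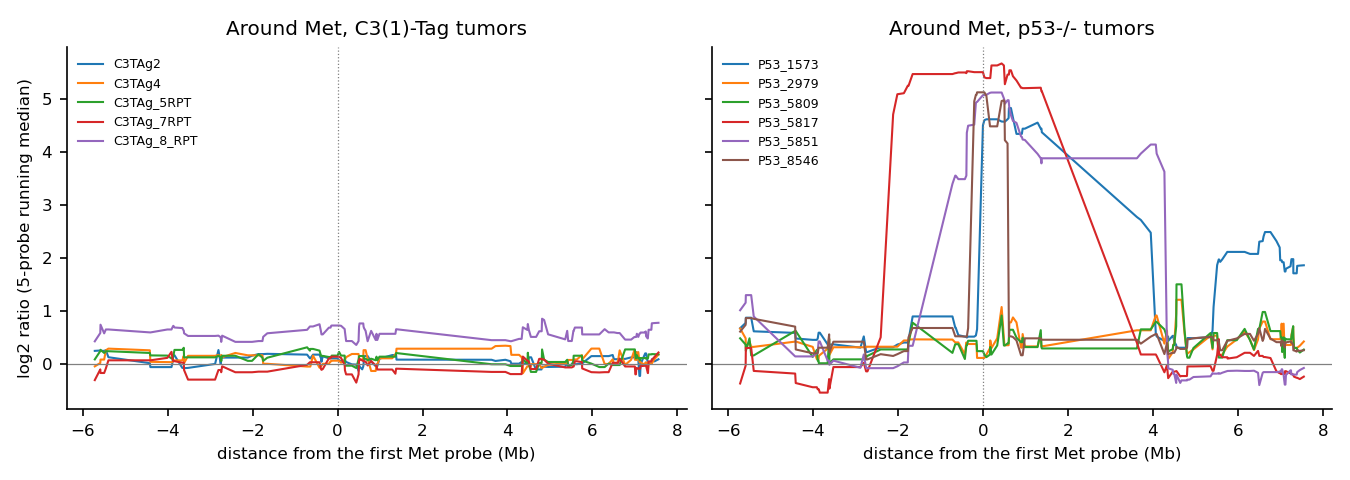
Log2 ratio (y axis, running median of 5 probes) against the distance in Mb from the first probe of Met, with 1 line for each tumor, C3(1)-Tag on the left and p53-/- on the right; straight stretches bridge gaps without probes. Around Met 4 p53-/- tumors rise above 4 and no C3(1)-Tag tumor exceeds 1.

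C3TAg_7RPT, the array nearly identical to H2N61, had a high-level gain on chromosome 6 from 126498637 to 130391047 (mean 1.23, 135 probes), which holds Ccnd2, the gene of the cell cycle activator cyclin D2, at a segment mean of 1.34. Ccnd2 lay in segments from -0.28 to 0.08 in the other C3(1)-Tag tumors and from -0.21 to 0.48 in p53-/- tumors.

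Besides the Met amplicon, p53-/- tumors had other high-level gains on proximal chromosome 6. P53_8546 had stretches at 36375629 to 36988755 (mean 4.44, 11 probes), which holds Ptn, coding for the growth factor pleiotrophin, at 50032007 to 50210558 (mean 4.95, 7 probes, with Mpp6 and Dfna5h) and at 53522330 to 53794696 (mean 4.78, 6 probes, with Creb5, a transcription factor). P53_1573 had a gain of mean 2.03 from 22956507 to 25797893, past the end of its Met amplicon. P53_5851 had a gain of mean 1.07 from 8470020 to 12046236.

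Outside chromosome 6, few high-level changes were longer than 1 Mb. P53_5817 had a gain on chromosome 1 from 109435668 to 111811436 (mean 0.93, 6 probes), with Cdh7 as its highest probe. P53_5851 had gains on chromosome 15 at 47528235 to 50826883 (mean 2.18), 53224283 to 55274734 (mean 2.02) and 56483204 to 57978535 (mean 2.06), all proximal to Myc. The single Myc probe (61816154 to 61816213) read 5.80 in this tumor. Its segment was at 0.02, but held 1067 probes and cannot show what the few probes next to Myc read. Myc lay between -0.68 and 0.65 in the other 10 tumors. C3TAg_8_RPT had high-level losses on chromosome 12 from 109056265 to 110039596 (mean -1.24, 18 probes), with the lowest probe in Rtl1, a paternally expressed gene, and on chromosome 7 from 9508979 to 10610069 (mean -0.91). C3TAg4 and C3TAg_5RPT had no high-level gain or loss.

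Several short segments were shared by P53_1573, P53_5817, P53_5851 and P53_8546, and absent from P53_2979, P53_5809 and the C3(1)-Tag tumors. These loci were chosen after their values were seen and were not tested. On chromosome 1 from 175677083 to 175989167, over the interferon-inducible genes Ifi202b and Ifi203 and olfactory receptors, the 19 probes had means of 1.53, 1.27, 1.22 and 1.63 in the 4 tumors, 0.25 and -0.05 in the other p53-/- tumors and -0.29 to 0.34 in C3(1)-Tag tumors. On chromosome 7 from 48066915 to 48316952, over Mrgprb receptor genes of sensory neurons and mast cells, the 4 were at 2.56, 2.86, 2.91 and 2.02, and all other tumors between -0.56 and 0.02. The 3 probes of AK155119 on chromosome 11 (116570620 to 116571580) were at -5.33, -5.58, -6.07 and -5.89 in the 4 tumors and between -0.28 and 0.09 in the other 7. On chromosome 3 from 106258630 to 106389918, over the chitinase-like genes Chi3l3 and Chi3l4, the 4 were at -1.35, -1.07, -0.81 and -1.39 and the rest at -0.001 to 0.64. The P53_5851 segment there, called lost, had a mean of -0.48. At each of these loci the 4 tumors had values of like size, at the same probes. Many of these genes belong to families of close copies, whose probes may bind more than 1 copy.

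The same 4 tumors shared a change in the neighbourhood of Glo1 on chromosome 17, a stretch listed here as copy number variable between inbred strains. From 30212210 to 30650272 (10 probes, with Btbd9, Glo1, Dnahc8 and Glp1r) they were at 0.71, 0.78, 0.98 and 0.80, P53_2979 was at 0.41 and P53_5809 at 0.02, and the C3(1)-Tag tumors lay between -0.02 and 0.12. Dnahc8, coding for an axonemal dynein, had 3 probes at a mean of 0.04, -0.04, 0.05, -0.11 and 0.06 in the C3(1)-Tag tumors and from 0.53 to 1.07 with a median of 0.89 in p53-/- tumors. The groups did not overlap, and the difference was -0.86 (SE 0.13, limma, adjusted p = 0.00586). With normexp it was -0.39 (adjusted p = 0.329) and with loess -0.67 (adjusted p = 0.0684), both by limma. The mean of the 10 probes on each side of Dnahc8 differed by 0.15 in the opposite direction. Of the 12 genes of strain-variable loci on the array, 2 passed, where 1.46% of all gene names did, namely Dnahc8 and 6430706D22Rik (Hjurp in RefSeq). 6430706D22Rik was at 0.50, -0.69, -1.31, -1.31 and -0.36 in the C3(1)-Tag tumors and from -0.03 to 2.78 with a median of 2.20 in p53-/- tumors (difference -2.59, SE 0.43, limma, adjusted p = 0.00928), with 1 p53-/- tumor, P53_5851, inside the C3(1)-Tag range. The median difference over the 12 genes was 0.0015. The strains of the tumors and of the reference are not in the labels, and their part was not tested.

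Over 1 Mb bins, 0 of 2057 differed between the models (0% called; limma, lowest adjusted p = 0.294), and 111 had an unadjusted p under 0.05. Of these 111, 72 were higher in C3(1)-Tag tumors, and 45 were among the 83 bins of chromosome 17, where 45 of 45 were higher in C3(1)-Tag tumors. The lowest p was that of chromosome 1 from 111000001 to 112000000 (4 probes, BC040066 and Cdh7, a cadherin), at 0.61, 0.27, -0.47, -0.76 and 0.14 in C3(1)-Tag tumors and from 0.43 to 1.31 with a median of 0.97 in p53-/- tumors. Next came the bin of Met on chromosome 6 from 17000001 to 18000000 (difference -3.21, SE 0.74) and that of Atp11b on chromosome 3 from 35000001 to 36000000 (difference -1.01, SE 0.25). Some settings gave bins past the threshold: 12 bins passed when all 45 arrays shared the estimate of the spread, 6 without P53_2979 and P53_5809, 10 without these, C3TAg_5RPT and C3TAg_7RPT, 2 with array weights, 2 without P53_5809 and 1 without C3TAg2 or P53_2979. Leaving out any other single tumor gave 0.

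Tumors of a model resembled each other little more than tumors of the other model. Over the 2057 bins, Pearson's r had a mean of 0.136 over the 10 pairs of C3(1)-Tag tumors, 0.233 over the 15 pairs of p53-/- tumors and 0.149 over the 30 pairs between models. The mean within models less that between models was 0.0451 (one-sided exact permutation test, p = 0.208). Without P53_2979 and P53_5809 it was 0.134 (p = 0.0317), and without these, C3TAg_5RPT and C3TAg_7RPT it was 0.138 (p = 0.0571, one-sided exact permutation tests). The first pair was left out for being unlike the other p53-/- arrays, which raises the similarity within the model by construction. P53_2979 and P53_5809 correlated at 0.725 with each other and at -0.0822 to 0.187 with the other 4.

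At the level of gene names, 294 of 20093 differed (1.46%; limma, adjusted p under 0.05), of which 45 were higher in C3(1)-Tag tumors (0.224%) and 249 in p53-/- tumors (1.24%), and 3857 had an unadjusted p under 0.05. Nearly all of these were isolated. For 290 of the 294, the mean difference of the 10 probes on each side was under 0.5 times that of the gene itself, and the median size of the difference was 1.05 for the gene and 0.0969 for its neighbours. The 4 exceptions were AK045027, St7 and Wnt2 in the Met amplicon and Psmb8, a subunit of the immunoproteasome on chromosome 17. Of the 294, 181 were measured by 1 probe, and 241 (82.0%) were in the dimmest 25% of gene names by Cy5 signal. In 205 of them the groups did not overlap, against 541 (2.69%) of all gene names. Scan date 1 alone gave 0 genes past the threshold (1131 at an unadjusted p under 0.05), the scan date as a block gave 9, and background correction by normexp gave 0 (2515 unadjusted). Leaving out 1 tumor gave 64 genes without C3TAg_7RPT, 66 without C3TAg_5RPT, 73 without C3TAg_8_RPT, 109 without P53_8546 and 115 without P53_5817. It gave 442 without C3TAg2, 513 without P53_1573, 468 without P53_2979 and 615 without P53_5851. Trp73, 6430706D22Rik and Dnahc8 passed whichever single tumor was left out, but not within scan date 1, with the scan date as a block, or without C3TAg_5RPT and C3TAg_7RPT. Within scan date 1 their differences were -2.44, -2.43 and -0.87, against -2.84, -2.59 and -0.86 over all tumors.

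**Figure D5:**
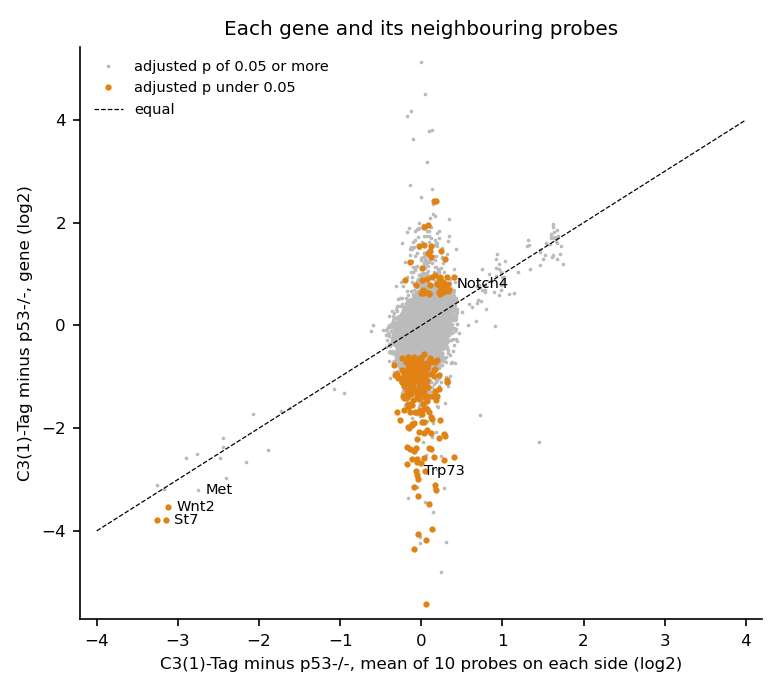
Difference C3(1)-Tag minus p53-/- in log2 ratio of each gene name (y axis) against that of the 10 probes on each side (x axis), in orange where the adjusted p was under 0.05, with a dashed line where both are equal. St7, Wnt2 and Met lie near the line at the lower left, whereas nearly all orange points stand in a vertical band around 0 of their neighbours.

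Of 24 genes of the p53 pathway on the array, 1 passed the test, where 1.46% of all gene names did, and the median difference was 0.02, with 13 higher in C3(1)-Tag and 11 in p53-/- tumors. Trp73, which codes for the p53 relative p73, was at -0.73, -0.24, -0.89, -1.54 and -1.15 in the C3(1)-Tag tumors and from 0.46 to 3.26 with a median of 2.03 in p53-/- tumors. The groups did not overlap (difference -2.84, SE 0.45, limma, adjusted p = 0.00623). It was measured by 1 probe, the 10 probes on each side differed by -0.07, and with normexp the difference was 0.05.

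None of the listed genes of the other targets of the viral proteins passed the test. Of 24 genes of the retinoblastoma pathway and the G1/S transition, 0 passed, with a median difference of -0.05. Rb1, the retinoblastoma gene on chromosome 14, had a difference of -0.54 (SE 0.29, limma, adjusted p = 0.323), and its segment ranged from -0.29 to 0.05 in C3(1)-Tag and from -0.41 to 0.32 in p53-/- tumors. Ccne1, coding for cyclin E1, differed by -0.52 (SE 0.21, limma, adjusted p = 0.188). Of 13 subunits of protein phosphatase 2A, the target of small t antigen, 0 passed, with a median difference of 0.05. The scaffold subunit gene Ppp2r1b had a difference of -0.53 (SE 0.19, limma, adjusted p = 0.152).

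Of the growth factor and cancer genes outside the Met amplicon, 1 passed the test. Of 24 genes of Ras and growth factor signalling, 0 passed (median difference -0.01). Of 33 oncogenes and tumor suppressors of mammary cancer, 1 passed, where 1.46% of all gene names did (median -0.01). Notch4, a Notch receptor and a known target of MMTV insertion, was at -0.09, -0.41, 0.32, 0.24 and 0.27 in the C3(1)-Tag tumors and from -1.30 to -0.52 with a median of -0.66 in p53-/- tumors. The groups did not overlap (difference 0.81, SE 0.18, limma, adjusted p = 0.0386), on the evidence of 1 probe, while the 10 probes on each side differed by 0.33. With single tumors left out, its adjusted p was 0.0242 to 0.134 (limma). The difference was 0.46 with normexp (adjusted p = 0.420) and 0.44 within scan date 1 (adjusted p = 0.804), both by limma. Yap1, the transcriptional co-activator of the Hippo pathway, differed by -0.75 (SE 0.20, limma, adjusted p = 0.0694). Its segment ranged from -0.29 to 0.15 in C3(1)-Tag and from -0.21 to 0.28 in p53-/- tumors, which overlap. Of 17 genes of chromosome segregation and the mitotic checkpoint, 0 passed (median -0.02), and Bub1b, a checkpoint kinase, had a difference of -0.37 (SE 0.14, limma, adjusted p = 0.165). None of the 19 listed lymphocyte receptor genes was on the array under its name.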

How the data were processed

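DNA of each tumor and of a reference had been hybridised together to 2-colour mouse 44K CGH arrays by the authors. Per the file headers, the deposited arrays hold spot intensity values and the log10 ratio of Cy5 over Cy3 from Feature Extraction 9.5.1.1, with positions in mm8. The authors' interval table gives log2 means of called regions and served for the dye direction and as an alternative. Here LogRatio was turned into the log2 ratio of Cy3 over Cy5, control and outlier spots were left out, probes at 1 position were averaged, and each array was centred on its autosomal median, which sets 0 within an array. This left 42235 probes, 40666 of them autosomal. Between 99.6% and 99.8% of spots were well above background in both channels, at 5.07 to 14.7 times background, and the number of arrays limits the precision. Bins of 1 Mb needed 3 probes. Segments needed 5 probes and a split statistic over 6, after probes over 3 SD from the median of 11 were pulled in. Bins and means of gene names were compared with limma 3.58.1 (R 4.3.3), unpaired and without covariates, and other measures by exact permutation tests over all assignments in Python 3.11.15 (numpy 2.4.6, numba 0.67.0), with Benjamini-Hochberg adjustment. Segmentation and the limma fit of gene names were tested on simulated data, and the permutation test on small made-up sets of values. The other steps were not tested in this way. Named genes were Trp53, Met and the members of the lists that passed, and some items of the rule are not reported here. Other genes were named after their values were seen. The members and lists were chosen with earlier results of these data known. Of 20093 gene names, 11649 were RefSeq symbols. Probe sequences were not used here.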

Additional observations from a re-analysis of the deposited data

Results flagged for a closer look

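In 7 of 66 groups of values, 1 tumor lay apart from the others of its model by Dixon's test, which chance alone does in about 1 of 20 groups. C3TAg_5RPT had 20 autosomal segments, against 41 in the next C3(1)-Tag tumor, and a median altered length of 126.7 Mb, against 18.6 Mb. This is the array nearly identical to H2N53. C3TAg_8_RPT lay apart in chromosome 3 (0.58, next 0.16), chromosome 14 (-0.30, next -0.03) and Met (0.717, next 0.052). For 6430706D22Rik, P53_5851 was at -0.0278 and the next p53-/- tumor at 2.01. For Notch4, P53_5809 was at -1.30 and the next at -0.78.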

How the results depend on the processing

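Of 505 recomputed values of 19 results under 39 settings, 377 kept their direction and side of the threshold, or for counts and untested values stayed close. Scan date, the doubted arrays and single-probe smoothing were added as settings after the data were seen. Array number limits the tests: within scan date 1 the smallest p of a permutation test was 0.1. The causes of the changes below were not tested.

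The difference in segment number was not called with normexp (-26.9), loess (-35.4), a split statistic over 8 (-19.0) and no smoothing (-329.4). It was also not called without C3TAg_5RPT and C3TAg_7RPT, here named the C3(1)-Tag arrays close to another model (-38). The same held without these and P53_2979 and P53_5809 (-50.8) and within 1 scan date (-36.8). Without single tumors the difference was -48.2 to -37. The lost share turned with normexp (1.66) and a call threshold of 0.3 (2.59). High-level gain turned with normexp (-1.63), a split statistic over 5 (-0.00486), a threshold of 0.6 (-1.11), no smoothing (-0.159), without the close C3(1)-Tag arrays (-0.0486), without P53_2979 and P53_5809 (-0.0535), without all 4 (-0.170) and within 1 scan date (-0.170), with -0.0972 to 0.146 without single tumors. Median length turned without the close arrays (-7.54) and within 1 date (-16.8), with -8.93 to 22.7 without single tumors. Profile correlation was -0.00431 to 0.0782 without single tumors and 0.134 without P53_2979 and P53_5809.

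Bins changed in 1 direction in at least 3 tumors of 1 model and in that direction in none of the other numbered 32 at a threshold of 0.3, 8 with the authors' intervals, 57 without P53_2979 and P53_5809 or all 4 arrays, 235 within 1 date and 49 to 676 without single tumors. Bins that differed numbered 12 with all 45 arrays, 2 with array weights, 6 without P53_2979 and P53_5809, 10 without all 4 and 0 to 2 without single tumors. Genes that differed numbered 172 with density-peak centring, 0 with normexp, 113 with loess (25.7% higher in C3(1)-Tag, against 15.3%), 1743 with all 45 arrays, 709 with slide as a random block, 980 with array weights, 9 with scan date as a block, 0 within 1 date, 33 without the close arrays, 885 without P53_2979 and P53_5809, 465 without all 4, 118 with at least 2 probes and 64 to 615 without single tumors.

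With the dyes as labelled, the differences became -0.12 for Trp53, 3.1999 for Met, 3.78 for St7, 3.53 for Wnt2, 2.84 for Trp73, 2.59 for 6430706D22Rik, 0.86 for Dnahc8 and -0.81 for Notch4. With normexp, Trp53 was at -0.046 and Trp73 at 0.050. No paired analysis was possible because replicate numbers were given in accession order and only name the tumors.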
